A study of Mus musculus with 20 samples.

Results

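The genes described here are 7 enzymes of cholesterol synthesis, Hmgcs1, Idi1, Fdft1, Sqle, Lss, Cyp51 and Dhcr7, measured by RNA sequencing of whole mouse striatum. They were taken by symbol from a table of expected counts per gene, in which 7 of 7 were found, each in 1 row of its own, among 26475 loci with a symbol. The study crossed a line of mice selected for high cage activity and a control line with an injection of d-amphetamine, a psychostimulant that releases dopamine, or of saline. The 4 groups were overactive mice given amphetamine, overactive mice given saline, control mice given amphetamine and control mice given saline, with 5 libraries each. All 20 mice were male, about 6 months old and labelled as Collaborative Cross, a mouse population bred from several inbred founder strains. The dose was 25 mg/kg, and the striatum was taken 2 h after treatment. There was a single overactive line and a single control line, so selection and any other difference between these lines cannot be told apart.

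Cholesterol is built in the cell from acetyl-CoA. Hmgcs1 makes the HMG-CoA that enters the mevalonate pathway, Idi1 prepares the isoprenoid units, Fdft1 joins farnesyl groups into squalene, Sqle and Lss oxidise and close squalene into lanosterol, and Cyp51 and Dhcr7 act on the way from lanosterol to cholesterol. The genes are classical targets of the transcription factor SREBP2, which is released from the endoplasmic reticulum when membrane sterol is low and which acts at promoters together with the factors NF-Y and Sp1. The brain makes nearly all of its own cholesterol, because lipoproteins do not cross the blood-brain barrier, and in the adult astrocytes and oligodendrocytes carry out much of this synthesis.

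Promoters are shown because these genes share a known regulator and varied together between libraries. The RefSeq promoter table (GRCm38.p6, 250 bases before to 50 bases after each start) held 5 of the 7 genes, namely Hmgcs1, Idi1, Lss, Cyp51 and Dhcr7, and 4 are printed. They are the promoter of the most abundant enzyme, those of the 2 enzymes that differed between the lines, and that of the enzyme that followed the others least. The windows are chr13:119690101-119690400 on the plus strand for Hmgcs1, chr10:76531355-76531654 on the plus strand for Lss, chr5:4104648-4104947 on the minus strand for Cyp51 and chr7:143822917-143823216 on the plus strand for Dhcr7. Dhcr7 has several starts in the table, and the window nearest its annotated start is shown. Each is written 5′ to 3′, and capitals mark the NF-Y box CCAAT or its reverse complement ATTGG and the SREBP site core CACNCCA.
Hmgcs1: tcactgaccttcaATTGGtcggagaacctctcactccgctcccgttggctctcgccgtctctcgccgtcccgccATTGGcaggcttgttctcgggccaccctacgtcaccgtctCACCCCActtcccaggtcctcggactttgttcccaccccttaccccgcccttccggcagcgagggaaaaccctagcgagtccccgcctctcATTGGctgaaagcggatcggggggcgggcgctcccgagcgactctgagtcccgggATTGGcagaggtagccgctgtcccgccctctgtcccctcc
Lss: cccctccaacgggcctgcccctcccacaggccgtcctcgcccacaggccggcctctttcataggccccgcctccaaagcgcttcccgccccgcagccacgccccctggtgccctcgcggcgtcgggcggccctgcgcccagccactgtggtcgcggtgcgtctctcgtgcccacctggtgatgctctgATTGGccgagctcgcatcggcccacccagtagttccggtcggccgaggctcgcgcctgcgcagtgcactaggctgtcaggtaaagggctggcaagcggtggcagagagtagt
Cyp51: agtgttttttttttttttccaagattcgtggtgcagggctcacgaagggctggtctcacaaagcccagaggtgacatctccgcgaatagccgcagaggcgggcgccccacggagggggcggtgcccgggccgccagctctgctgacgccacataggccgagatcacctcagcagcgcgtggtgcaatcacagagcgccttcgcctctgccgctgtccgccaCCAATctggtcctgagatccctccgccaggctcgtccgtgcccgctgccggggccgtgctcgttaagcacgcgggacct
Dhcr7: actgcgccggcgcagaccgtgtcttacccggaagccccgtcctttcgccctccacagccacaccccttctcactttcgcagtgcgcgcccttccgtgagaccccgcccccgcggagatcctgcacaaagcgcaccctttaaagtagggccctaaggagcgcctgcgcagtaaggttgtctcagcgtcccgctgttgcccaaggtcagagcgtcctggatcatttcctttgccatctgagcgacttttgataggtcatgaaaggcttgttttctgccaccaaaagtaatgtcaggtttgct

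Searched on both strands, CCAAT matched 4 times in the Hmgcs1 window, 2 times in that of Idi1, 1 time each in those of Lss and Cyp51, and 0 times in the Dhcr7 window at the annotated start, against at least 1 match in 37.4% of all 32851 promoters of the table. The core CACNCCA matched 1 time, in Hmgcs1, and 18.4% of all promoters held it. The Sp1 box GGGCGG matched in these 5 windows, 1 a gene, between 1 and 3 times, and was held by 35.7% of all promoters. The E-box CACGTG matched in 0 of these 5 windows and in 7.15% of all promoters. The table held 2 further Dhcr7 windows at other starts, of which 1 had 2 matches of CCAAT and 3 of GGGCGG, and the other 0 of each and 1 of CACGTG. Matches of different motifs did not overlap in these windows, and a match describes the sequence only.

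Library totals were 31393788 to 53773028 expected counts, and each enzyme had between 845 and 12793 counts in a library. All 10 tested markers of striatal projection neurons were present in every group, with summed levels of 4546 to 7506 counts scaled to library size (CPM) per library. Markers of cortical excitatory neurons, a neighbouring tissue, summed to 283 to 1136 CPM in overactive mice given amphetamine, 191 to 390 CPM in overactive mice given saline, 713 to 990 CPM in control mice given amphetamine and 364 to 965 CPM in control mice given saline. Thalamic and septal markers were highest in libraries 2 and 3 of overactive mice given amphetamine and libraries 1 and 4 of overactive mice given saline. The oligodendrocyte marker Mbp and the astrocyte marker Slc1a2 were listed at 0 in all 20 libraries and were not used. In bulk tissue, fewer cells of a type and less RNA per cell cannot be told apart.

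Hmgcs1 was the most abundant of the 7 enzymes per kilobase of principal transcript, a scale on which genes can be compared. It had 65.1 ± 9.32 CPM per kb (SD, n = 20 libraries), and its lowest library lay above the highest library of every other member. Fdft1 followed with 23.7 ± 2.60 CPM per kb, then Sqle with 17.8 ± 2.29, Idi1 with 17.1 ± 1.79, Cyp51 with 14.3 ± 2.20, Lss with 9.27 ± 1.33 and Dhcr7 with 8.34 ± 0.807 CPM per kb. Each neighbouring pair below Hmgcs1 in this order had overlapping ranges. In CPM without length, Hmgcs1 lay above 94.8% and Dhcr7 above 56.7% of the 17206 genes tested, as the highest and the lowest member. The plot of CPM by library shows all 7 enzymes in the 4 groups.

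**Figure D1:**
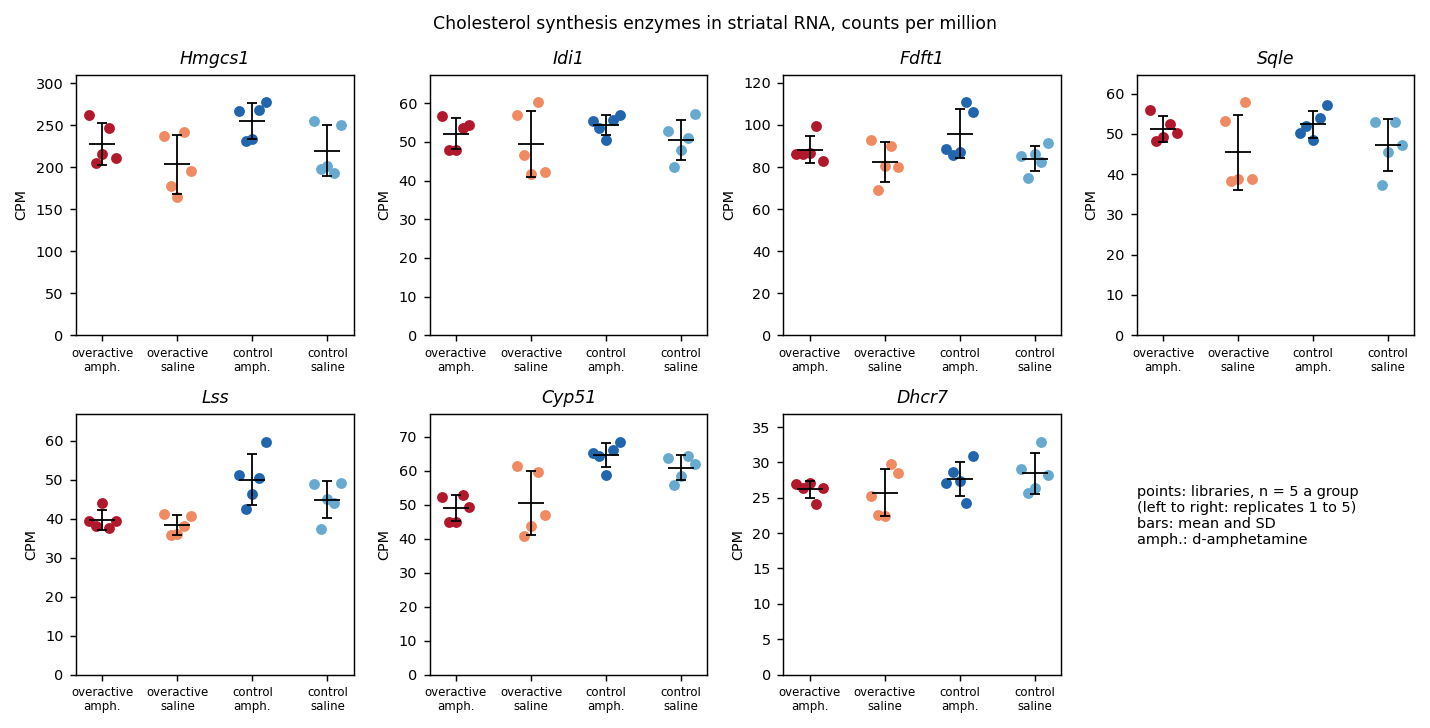
Level in CPM (vertical axes starting at 0) of the 7 enzymes in each library, by group (horizontal axes, n = 5 libraries a group, replicates 1 to 5 from left to right); bars are mean and SD. Cyp51 in amphetamine-treated mice is the 1 case in which the overactive libraries (44.9 to 52.9 CPM) and the control libraries (58.8 to 68.5 CPM) lie apart.

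Cyp51 and Lss were lower in the overactive line than in the control line over both treatments, and the other 5 enzymes did not pass the test. Cyp51, a sterol demethylase, removes a methyl group from lanosterol, and Lss, lanosterol synthase, makes that lanosterol, so the enzymes stand next to each other in the pathway. In edgeR's quasi-likelihood test, 2 of 7 enzymes passed at an adjusted p under 0.05, both lower, against 7.02% of all genes tested in either direction and 3.31% in the lower one (638 genes higher and 570 lower). All 7 enzymes had negative log2 fold changes, with a median of -0.11, against a median over all genes tested of 0.00. With a score of cortical neuron markers as a covariate, described further on, 4 of 7 were negative over both treatments and 3 of 7 in saline. Under amphetamine only 1 of 7 was positive with that covariate. The 7 values of a fit are not independent, since the enzymes varied together between libraries.

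Cyp51 lies on chromosome 5 (XLOC_025083, gene 4081145 to 4104746 on the minus strand, GRCm38), and its last part overlaps Akap9, which runs on the opposite strand. The counted locus is longer than the gene, from 4080673 to 4192309, and also spans Akap9. Whether counting used strand is not given, so reads of such overlapping genes may be mixed here and for Fdft1, Hmgcs1 and Idi1, which also overlap genes on the opposite strand. The level of Cyp51 in overactive mice given amphetamine was 52.3, 44.9, 45.0, 52.9 and 49.4 CPM in libraries 1 to 5, against 65.3, 64.3, 58.8, 66.2 and 68.5 CPM in control mice given amphetamine. The groups did not overlap, and every overactive library was below every control library. Such a separation in the lower direction was seen for 1.36% of the genes tested. The endothelial marker score did not overlap between these groups either, with -0.05 to 0.22 in overactive and -0.19 to -0.08 in control mice, and 6 of 6 endothelial markers had positive line differences there, 0 of them past the test. With that score as a covariate, added after seeing the data, Cyp51 under amphetamine had log2 -0.24 (SE 0.11, edgeR adjusted p = 0.313) and Lss -0.23 (SE 0.10, edgeR adjusted p = 0.315), while over both treatments both still passed (edgeR adjusted p = 0.0112 and 0.0204). Given saline, overactive mice had 61.4, 40.7, 43.7, 59.7 and 46.8 CPM, against 63.8, 55.7, 58.5, 64.3 and 62.0 CPM in control mice. Here 3 overactive libraries lay below all controls, while libraries 1 and 4 lay within the control range. Over both treatments Cyp51 fell by 20.8% (log2 -0.34, SE 0.07, edgeR adjusted p = 0.00593).

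Libraries 1 and 4 of overactive mice given saline were also among the 4 libraries with the highest thalamic and septal marker scores. Without those 4 libraries, an alternative chosen after seeing the data, the difference in Cyp51 over both treatments was log2 -0.40 (SE 0.04, edgeR adjusted p = 0.000377). In saline alone the difference was log2 -0.27 (SE 0.09, edgeR adjusted p = 0.15) with all libraries and log2 -0.48 (SE 0.06, edgeR adjusted p = 0.00356) without them. Under amphetamine it was log2 -0.40 (SE 0.09, edgeR adjusted p = 0.0625) with all libraries and log2 -0.33 (SE 0.06, edgeR adjusted p = 0.0614) without them. All 4 libraries left out were of the overactive line, and libraries 1 and 4 in saline (61.4 and 59.7 CPM) were those within the control range. The larger difference in saline follows from leaving those out, so that fit is no separate support for it.

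Lss lies on chromosome 10 (XLOC_002412, gene 76531588 to 76557138 on the plus strand, GRCm38), and an antisense gene in the same locus span, 4930483K19Rik, had a mean of 5.10 counts. In overactive mice given amphetamine its level was 39.3, 38.2, 44.1, 37.7 and 39.4 CPM, against 51.1, 42.4, 46.4, 50.5 and 59.8 CPM in control mice given amphetamine. Only overactive library 3 and control library 2 crossed. Given saline, overactive mice had 41.2, 35.9, 36.2, 38.1 and 40.8 CPM, against 48.9, 37.4, 45.1, 44.1 and 49.2 CPM in control mice. There, control library 2 lay inside the overactive range and the other 4 control libraries above it. Over both treatments Lss fell by 17.6% (log2 -0.28, SE 0.06, edgeR adjusted p = 0.00914).

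Within a single treatment 0 of 7 enzymes passed in edgeR, against 1.11% of all genes tested in saline and 0.453% under amphetamine. At an unadjusted p under 0.05 these comparisons gave 2 of 7 enzymes each, Cyp51 and Lss, and 17.3% and 12.9% of all genes tested. Under amphetamine the test of Cyp51 and Lss lay near the threshold: DESeq2 called both (adjusted p = 0.00619 for Cyp51 and 0.0117 for Lss), and limma-voom with sample weights called 0 of 7 (adjusted p = 0.0551 for Cyp51 and 0.0815 for Lss). Over all genes DESeq2 called 325 in this comparison and limma-voom 106, where edgeR called 78. In edgeR, Cyp51 passed there without overactive saline library 1, 2 or 4 (adjusted p = 0.0374, 0.0375 and 0.0499), and Lss passed without control amphetamine library 2 (adjusted p = 0.0465). The difference between the treatments in the line effect was log2 -0.13 (SE 0.13) for Cyp51 and -0.11 (SE 0.12) for Lss, with an edgeR adjusted p of 1 for both.

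The other 5 enzymes had line differences over both treatments between log2 -0.14 and -0.04, with edgeR adjusted p between 0.258 and 0.766. Hmgcs1, on chromosome 13 (XLOC_008429, gene 119690379 to 119708260 on the plus strand), differed by log2 -0.14 (SE 0.08), and Dhcr7, a reductase late in the pathway, on chromosome 7 (XLOC_029461, gene 143823145 to 143848410 on the plus strand), had -0.11 (SE 0.06). Fdft1, on chromosome 14 (XLOC_010385, gene 63145150 to 63179578 on the minus strand), had -0.07 (SE 0.06). Its span overlaps the abundant gene Ctsb on the opposite strand, which had a mean of 496 CPM and a line difference of log2 -0.07 (SE 0.04). Idi1, also on chromosome 13 (XLOC_007856, gene 8885501 to 8892451 on the plus strand), had -0.05 (SE 0.07), and Sqle, on chromosome 15 (XLOC_011071, gene 59315077 to 59331192 on the plus strand), had -0.04 (SE 0.08). For these 2 the 95% intervals of the line difference in saline reached from log2 -0.23 to 0.17 and from -0.29 to 0.18. The counted locus of Sqle runs past the gene to 59374177 and also spans Washc5.

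Dhcr7 had 26.9, 26.4, 27.2, 24.2 and 26.4 CPM in overactive mice given amphetamine, against 27.0, 28.6, 27.4, 24.3 and 30.9 CPM in control mice given amphetamine. Given saline, overactive mice had 25.3, 22.6, 22.5, 29.7 and 28.6 CPM, against 29.1, 25.6, 26.4, 32.9 and 28.2 CPM in control mice. The lines overlapped in both treatments.

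**Figure D2:**
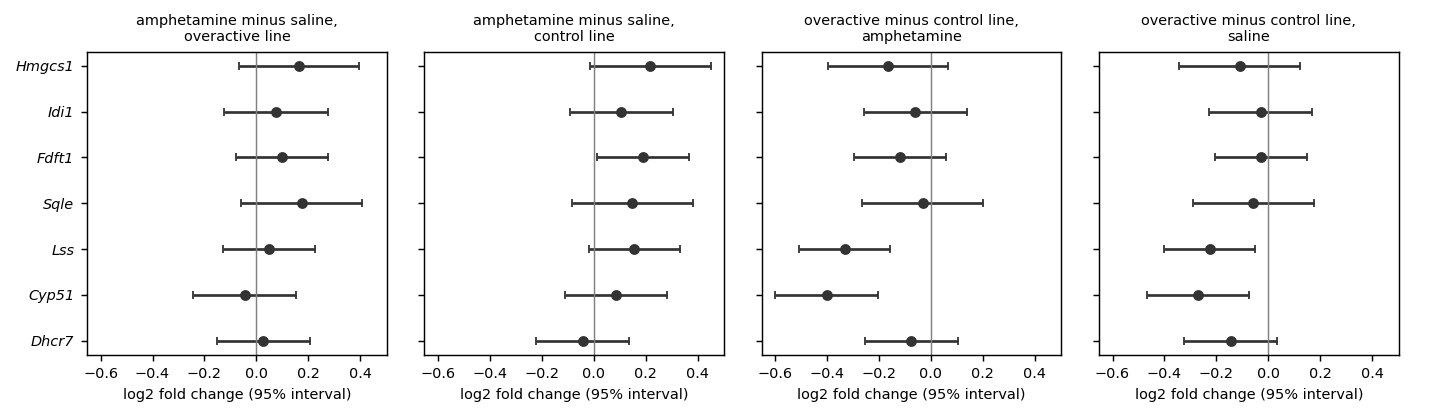
Log2 fold changes of the 7 enzymes (points) with 95% intervals (lines) from 1 edgeR model of 20 libraries, in 4 comparisons between 2 groups of 5. Cyp51 and Lss lie farthest from 0 in both comparisons of overactive with control mice, at -0.40 and -0.33 under amphetamine and -0.27 and -0.23 in saline.

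Cortical tissue markers were lower on average in the overactive line. After adjustment 1 of 10 passed over both treatments, lower, and 0 of 10 passed within either treatment. At an unadjusted edgeR p under 0.05 there were 9 of 10 over both treatments (median log2 -0.73), against 25.6% of all genes tested. Among mice given saline the count was also 9 of 10 (median log2 -1.19), against 17.3% of all genes. Among mice given amphetamine it was 0 of 10 (median log2 -0.26), against 12.9%. The score of 10 cortical excitatory neuron markers, the mean log2 deviation from the average library, was 0.22 ± 0.75 in overactive mice given amphetamine and -0.90 ± 0.46 in overactive mice given saline, against 0.57 ± 0.20 in control mice given amphetamine and 0.11 ± 0.60 in control mice given saline (SD, n = 5 each). With this score as a covariate, Cyp51 had a line difference of log2 -0.25 (SE 0.07, edgeR adjusted p = 0.116) and Lss of -0.23 (SE 0.07, edgeR adjusted p = 0.143), so both kept their direction and 0 of 7 enzymes passed. Over all genes, 185 passed with this covariate and 1208 without it. In saline, where the scores differed most, the covariate gave log2 -0.14 (SE 0.11, edgeR adjusted p = 0.792) for Cyp51 and -0.16 (SE 0.10, edgeR adjusted p = 0.752) for Lss, against -0.27 and -0.23 without it. Under amphetamine it gave log2 -0.36 (SE 0.09, edgeR adjusted p = 0.101) for Cyp51 and -0.31 (SE 0.09, edgeR adjusted p = 0.161) for Lss. The ranges of the cortical score in the lines overlapped in both treatments. With group means removed, the cortical score had an r of 0.46 with Cyp51 and 0.27 with Lss over the 20 libraries. Other marker scores had stronger r values. Cyp51 had -0.65 with the striatal projection neuron, -0.52 with the endothelial and 0.49 with the astrocyte score. Lss had -0.40 with the endothelial, 0.34 with the microglia and 0.30 with the astrocyte score. The oligodendrocyte score was 0.10 ± 0.18 and 0.06 ± 0.15 in overactive mice given amphetamine and saline, against -0.09 ± 0.21 and -0.08 ± 0.28 in control mice given amphetamine and saline. With the oligodendrocyte score as a covariate, Cyp51 and Lss both still passed (edgeR adjusted p = 0.0146 each).

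**Figure D3:**
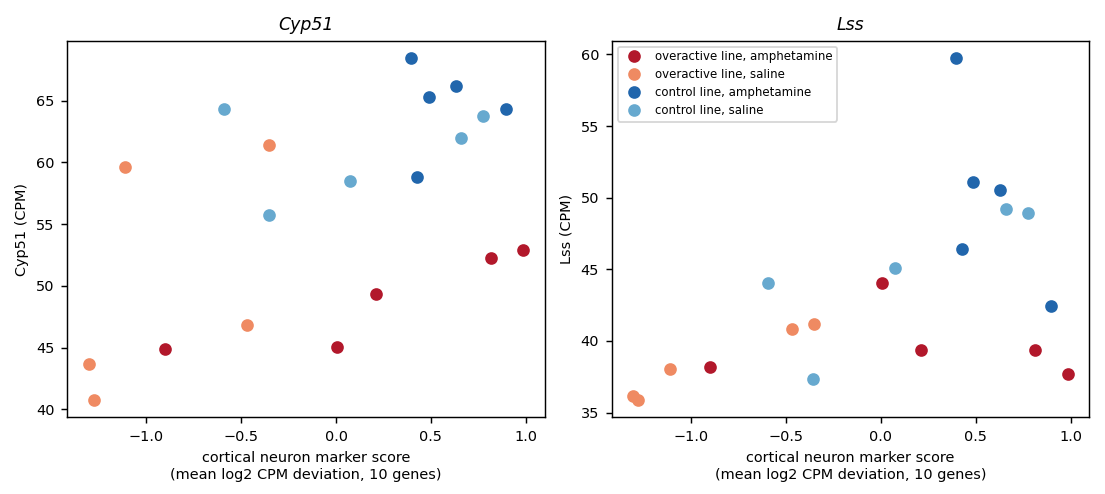
Cyp51 and Lss in CPM (vertical axes, not starting at 0) against the score of 10 cortical neuron markers (horizontal axes, mean log2 deviation), 1 point a library, 20 libraries. Among overactive mice given amphetamine, Cyp51 is lowest in the library of lowest score (44.9 CPM at -0.90) and highest in that of highest score (52.9 CPM at 0.98). Among overactive mice given saline, it is also highest at the highest score (61.4 CPM at -0.35). In both control groups it is instead highest at the lowest score (68.5 CPM at 0.40 given amphetamine, 64.3 CPM at -0.59 given saline). Other libraries break these orders, with 55.7 CPM at -0.36 in control saline library 2 and 59.7 CPM at -1.11 in overactive saline library 4.

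Amphetamine left none of the 7 enzymes past the test in either line. These comparisons use the same libraries as those between the lines. In edgeR 0 of 7 enzymes and 0% of all genes tested passed in the overactive line, in the control line, over both lines and for the difference between the lines in the response. At an unadjusted p under 0.05 there were 1382 genes in the overactive line (8.03%), 957 in the control line (5.56%), 1895 over both lines (11%) and 510 for the difference (2.96%). DESeq2 called 42, 2, 166 and 0 genes in these comparisons and limma-voom 0 in each, and both tools called 0 of 7 enzymes in all 4.

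Most of the enzymes had positive values. In the overactive line 6 of 7 log2 fold changes were positive with a median of 0.08, in the control line 6 of 7 with a median of 0.15, and over both lines 6 of 7 with a median of 0.10, against medians over all genes tested between -0.01 and 0.00. The negative value was that of Cyp51 in the overactive line (log2 -0.045, SE 0.09), and that of Dhcr7 in the control line (log2 -0.04, SE 0.09) and over both lines (log2 -0.01, SE 0.06). Over both lines 2 of 7 had an unadjusted p under 0.05, Hmgcs1 (log2 0.19, SE 0.08, edgeR adjusted p = 0.374) and Fdft1 (log2 0.14, SE 0.06, edgeR adjusted p = 0.381).

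Hmgcs1, the entry enzyme, had 262, 205, 215, 246 and 211 CPM in overactive mice given amphetamine, against 237, 177, 164, 242 and 196 CPM in overactive mice given saline. In the control line it had 267, 231, 234, 268 and 277 CPM after amphetamine, against 255, 198, 201, 193 and 250.5 CPM after saline. The treatments overlapped in both lines. The log2 fold change was 0.16 (SE 0.11, edgeR adjusted p = 0.768) in the overactive line and 0.22 (SE 0.11, edgeR adjusted p = 0.88) in the control line.

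Fdft1, squalene synthase, had 86.0, 86.4, 86.6, 99.4 and 82.9 CPM in overactive mice given amphetamine, against 92.7, 68.9, 80.5, 90.0 and 80.0 CPM in overactive mice given saline. In the control line it had 88.8, 85.9, 87.4, 111 and 106 CPM after amphetamine, against 85.3, 74.7, 86.2, 82.5 and 91.4 CPM after saline. Control libraries 4 and 5 given amphetamine lay above all 5 control libraries given saline, and the other 3 lay within their range. The log2 fold change was 0.10 (SE 0.08) in the overactive line and 0.19 (SE 0.09, unadjusted p = 0.0381, adjusted p = 0.88 in edgeR) in the control line.

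Sqle, squalene epoxidase, had 56.1, 48.2, 49.2, 52.4 and 50.3 CPM in overactive mice given amphetamine, against 53.1, 38.4, 38.9, 57.8 and 38.8 CPM in overactive mice given saline. In the saline group libraries 2, 3 and 5 lay below all amphetamine libraries, and libraries 1 and 4 lay among or above them. In the control line it had 50.3, 52.0, 48.4, 53.9 and 57.1 CPM after amphetamine, against 52.9, 37.4, 45.6, 52.9 and 47.4 CPM after saline. The log2 fold change was 0.17 (SE 0.11) in the overactive line and 0.15 (SE 0.11) in the control line.

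Idi1, isopentenyl diphosphate isomerase, ranged over 47.8 to 56.7 CPM in overactive mice given amphetamine, against 41.6 to 60.2 CPM in overactive mice given saline. In the control line it ranged over 50.4 to 56.9 CPM after amphetamine, against 43.6 to 57.3 CPM after saline. For the 7 enzymes the difference between the lines in the response lay between log2 -0.13 and 0.07, with SE of 0.12 to 0.16.

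Cortical markers also had positive values after the drug, with a median of log2 1.36 over 10 markers in the overactive line and 0.45 in the control line. In edgeR 0 of 10 passed in either line, and 9 of 10 in the overactive line and 0 of 10 in the control line had an unadjusted p under 0.05, against 8.03% and 5.56% of all genes tested. With the cortical score as a covariate, 4 of the 6 positive values of the overactive line became negative (Hmgcs1 at log2 -0.08, Idi1 at -0.07, Fdft1 at -0.01 and Lss at -0.03). The direction of those 4 responses in the overactive line was not kept in that fit.

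The 7 enzymes varied together between libraries of the same group. After removing group means from log2 CPM, all 21 pairs of enzymes correlated positively over the 20 libraries, with a median Pearson r of 0.56, and 13 pairs lay above 0.5. The closest pair was Sqle and Cyp51 (r = 0.89), followed by Idi1 and Sqle (r = 0.87), and the loosest was Fdft1 and Dhcr7 (r = 0.14). Taken by enzyme, the median r with the other 6 was highest for Cyp51 (0.75) and lowest for Dhcr7 (0.38) and Lss (0.42). Lss and Cyp51, the enzymes that were lower in the overactive line, had an r of only 0.36 with each other. Within a library all 7 enzymes share the same dissection and library preparation, and the part of these in the correlations was not tested.

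In overactive mice given saline the mean of the 7 enzymes, as a log2 deviation from the average library, ranged from -0.30 to 0.10, and libraries 1 and 4 were the high ones. The SD of this mean was 0.06 in overactive mice given amphetamine and 0.19 in overactive mice given saline, against 0.10 in control mice given amphetamine and 0.12 in control mice given saline. The mean with group means removed had an r of 0.54 with the astrocyte marker score, 0.45 with the cortical score, 0.18 with the oligodendrocyte score, -0.58 with the striatal projection neuron score, -0.56 with the endothelial score and 0.09 with the log2 library total. The part of these markers in the joint variation was not tested. Taken by itself, Dhcr7 had an r of 0.52 with the oligodendrocyte score and -0.01 with the cortical score, as a description of these 20 libraries.

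**Figure D4:**
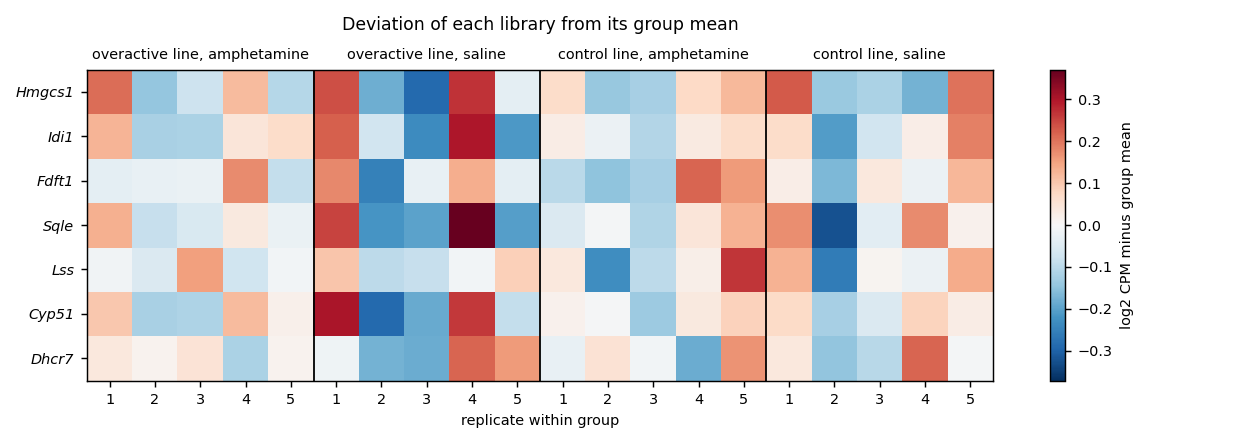
Deviation of each library from its group mean (colour, log2 CPM) for the 7 enzymes (rows) in 20 libraries (columns, replicates 1 to 5 within 4 groups). In overactive mice given saline, library 4 is high in Sqle and Idi1 and library 2 is low in Cyp51 and Fdft1. Some columns hold 1 colour, such as libraries 2 and 3 of that group, and others hold both, such as control saline library 4.

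Of 14371 genes with a mean of at least 1 CPM outside the 7 enzymes, 30 had an r above 0.7 with the mean of the enzymes, where the median gene had 0.02 and 5% of genes lay above 0.47. The most alike included Mvk (r = 0.89), the mevalonate kinase, Nsdhl (0.84), a sterol dehydrogenase, Insig1 (0.82), which holds the SREBP escort protein in the endoplasmic reticulum, and Tmem97 (0.79), a sterol-binding membrane protein. Genes outside the pathway were Atg7 (0.83), an enzyme of autophagy, Antxr1 (0.80), Poldip2 (0.80) and Trpm4 (0.80), a cation channel. The most opposite were Chd2 (-0.78), Nebl (-0.78), Txlng (-0.77), Gm19531 (-0.75) and Alcam (-0.75). With group means left in, 4 of the 10 most alike genes stayed among the first 10.

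Read along the lists, enzymes between squalene and cholesterol outside the 7 had a median r of 0.74, with 4 of 7 above 0.7, and the other mevalonate enzymes 0.62, with 2 of 6. Regulators of SREBP2 had a median of 0.15, with Insig1 as the 1 of 9 above 0.7 and Srebf2, the gene of SREBP2 itself, at 0.69. Sterol transport and turnover genes had a median of 0.02 and fatty acid synthesis genes of 0.25, with 0 above 0.7 in both.

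The rest of the pathway was read from 5 lists with 44 genes, all tested. Over both treatments 1 of 44 was higher and 1 of 44 lower in the overactive line, against 7.02% of all genes tested in either direction. Npc1, which exports cholesterol from lysosomes, averaged 84.7 ± 2.89 CPM in overactive mice given amphetamine and 76.1 ± 5.25 CPM in control mice given amphetamine, and 84.4 ± 4.13 CPM in overactive mice and 74.1 ± 4.26 CPM in control mice given saline (SD, n = 5 each). It was higher by log2 0.17 (SE 0.04, edgeR adjusted p = 0.0074). With the cortical score as a covariate it had log2 0.13 (edgeR adjusted p = 0.139), and without the 4 libraries highest in thalamic markers 0.15 (edgeR adjusted p = 0.0763). Scd2, a fatty acid desaturase of brain, averaged 1457 ± 135 CPM in overactive mice and 1741 ± 163 CPM in control mice given amphetamine. Given saline it averaged 1445 ± 65.4 CPM in overactive mice and 1514 ± 91.3 CPM in control mice. It was lower by a log2 fold change of -0.16 (SE 0.05, edgeR adjusted p = 0.0497), and this call held in 3 of 20 fits that each left out 1 library (edgeR adjusted p between 0.0251 and 0.0911).

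Among the other mevalonate enzymes 0 of 6 passed and 6 of 6 were negative over both treatments, with a median of log2 -0.07. In saline the smallest p values belonged to Ggps1, geranylgeranyl diphosphate synthase (log2 -0.27, SE 0.07, edgeR adjusted p = 0.0534), and Fdps, farnesyl diphosphate synthase (-0.14, SE 0.07). Under amphetamine they belonged to Mvk (-0.10, SE 0.09) and Pmvk, phosphomevalonate kinase (0.09, SE 0.13). Of the other enzymes between squalene and cholesterol, 0 of 7 passed and 5 of 7 were negative, with a median of -0.08. Among their smallest p values were those of Sc4mol, the sterol methyl oxidase now named Msmo1 (-0.15, SE 0.09), in saline, and Hsd17b7, a sterol ketoreductase (0.33, SE 0.13), and Nsdhl (-0.13, SE 0.10) under amphetamine. The pathway plot places Lss and Cyp51 side by side as the lowest values.

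**Figure D5:**
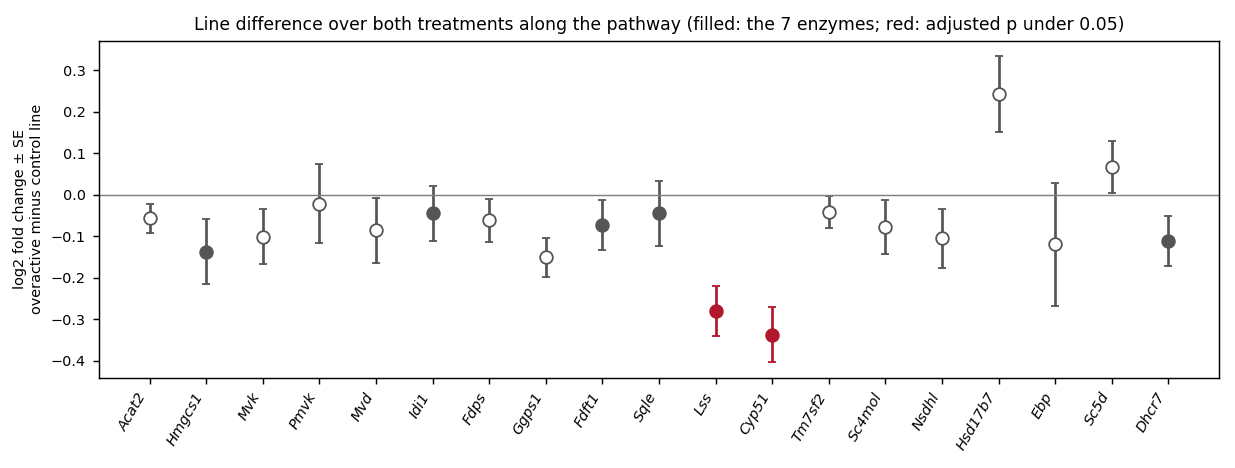
Line difference over both treatments (log2 fold change, overactive minus control line, points with SE) for enzymes in pathway order, with the 7 enzymes filled and those past the edgeR test in red. Lss (-0.28) and Cyp51 (-0.34) are the 2 that passed, and the other enzymes lie between -0.15 and 0.24.

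Regulators, transport genes and fatty acid enzymes gave 0 calls within either treatment. In saline, overactive against control mice, Stard4, a sterol carrier, had log2 -0.53 (SE 0.17, edgeR adjusted p = 0.113) and Srebf2 -0.09 (SE 0.06). Npc1 had 0.19 (SE 0.05, edgeR adjusted p = 0.0677), Soat1, which esterifies cholesterol, 0.31 (SE 0.15), Fasn, fatty acid synthase, -0.06 (SE 0.05) and Elovl5, a fatty acid elongase, 0.08 (SE 0.08). Under amphetamine, Insig2 had 0.10 (SE 0.05), Mbtps1, a protease that cleaves SREBP proteins, -0.15 (SE 0.07), Npc1 0.16 (SE 0.05), Cyp46a1, the neuronal cholesterol hydroxylase, -0.16 (SE 0.07), Scd1 -0.49 (SE 0.16) and Scd2 -0.26 (SE 0.07, edgeR adjusted p = 0.109).

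For the drug, 0 of 44 list genes passed in either line, over both lines or for the difference. In the overactive line the smallest p values of the lists included those of Sc4mol (log2 0.14, SE 0.09), Ggps1 (0.12, SE 0.07), Mvd (0.12, SE 0.11), Insig1 (0.25, SE 0.13), Mbtps2 (0.11, SE 0.05), Vldlr (-0.14, SE 0.05), Abcg1 (-0.11, SE 0.04), Acaca (0.10, SE 0.06) and Elovl5 (-0.11, SE 0.08). All 7 of the other enzymes between squalene and cholesterol had positive values there. In the control line they were those of Ebp (0.30, SE 0.21), Nsdhl (0.11, SE 0.10), Ggps1 (-0.12, SE 0.07), Acat2 (-0.08, SE 0.05), Mbtps2 (0.16, SE 0.05), Insig2 (-0.07, SE 0.05), Vldlr (-0.09, SE 0.05), Abca1 (-0.16, SE 0.10), Scd2 (0.20, SE 0.07) and Acss2 (0.22, SE 0.08). Vldlr, a lipoprotein receptor, was negative and Mbtps2, the second protease that cleaves SREBP proteins, positive in both lines, with edgeR adjusted p between 0.432 and 0.88.

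The genes within 1 Mb of each enzyme were looked at, a set chosen after values were seen. Over both treatments 5 of 13 tested neighbours of Cyp51 passed (3 higher and 2 lower in the overactive line) and 5 of 33 neighbours of Lss (3 higher and 2 lower), against 7.02% of all genes tested. Beside the other enzymes the counts were 1 of 15 for Fdft1, 2 of 13 for Sqle, 0 of 9 for Hmgcs1, 0 of 6 for Idi1 and 0 of 20 for Dhcr7. Near Cyp51, Gatad1 was lower (log2 -0.22, SE 0.04, edgeR adjusted p = 0.00178) and Mterf higher (log2 0.43, SE 0.07, edgeR adjusted p = 0.00215). Near Lss, S100b, a calcium-binding protein of astrocytes, was lower (log2 -0.78, SE 0.11, edgeR adjusted p = 0.000296) and Col6a2, a collagen chain, higher (log2 0.65, SE 0.14, edgeR adjusted p = 0.0111). S100b is 1 of the 7 tested astrocyte markers, of which 5 had positive line differences over both treatments. Of these 7 markers 2 passed as higher and 1, S100b, as lower. The windows of Cyp51, Lss and Sqle each held neighbours that differed between the lines in both directions, and no sequence differences between the lines were analysed here.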

How the data were processed

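Whole striatal RNA of 20 mice was sequenced with paired ends, and the deposited table holds expected counts per locus, not scaled between libraries (93.9% of values whole within 0.01); the builds mm10 and GRCm38 are named in the submitters' processing notes, and the aligner, counter and strand setting are not given in the sources used here. The table has 37051 loci, and the 10576 without a symbol (0.65% of counts) were left out. Counts were rounded and analysed in edgeR 4.0.16 (R 4.3.3): filterByExpr (17206 genes), TMM scaling, 1 quasi-likelihood model with 4 group means, 7 comparisons, two-sided, Benjamini-Hochberg adjustment over all genes, threshold 0.05. The test was tried on simulated data. CPM are counts scaled to TMM library sizes, and levels per kb use principal transcripts of GENCODE M21. Likeness is Pearson r of log2 CPM (prior count 2).

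The enzymes, lists and tests were chosen with earlier results of these data known. List genes are named where they passed in any comparison or had 1 of the 2 smallest p values of their list in a comparison between 2 groups, and likeness names the 10 most alike and 5 most opposite genes; 2 of the genes these rules took are not reported here. Alternatives were RLE and upper quartile scaling, other filters, DESeq2 1.42.0, limma-voom (limma 3.58.1), a fit of 2 groups alone, a block for the replicate number, marker scores as covariates and leaving out each library. Fits without 4 libraries and with striatal, astrocyte or endothelial scores were added after the data were seen.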

Additional observations from a re-analysis of the deposited data

Results flagged for a closer look

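In 28 sets of 5 libraries (7 enzymes in 4 groups), 3 libraries stood apart from the other 4 of their group by Dixon's criterion, which chance alone meets in about 1 in 20 sets. All 3 were in overactive mice given amphetamine. Fdft1 was highest in library 4 at 99.4 CPM, with the next library at 86.6 CPM. Lss was highest in library 3 at 44.1 CPM, with the next at 39.4 CPM. Dhcr7 was lowest in library 4 at 24.2 CPM, with the next at 26.4 CPM. The gap took 0.774, 0.734 and 0.754 of the group's range in these 3 sets, against a critical value of 0.71. Library 3 is also among the 4 with the highest thalamic and septal markers, and leaving out either library kept the calls of Cyp51 and Lss over both treatments.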

How the results depend on the processing

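Over both treatments, the calls of Cyp51 and Lss as lower in the overactive line held under every alternative run except the cortical score as a covariate, where 0 of 7 enzymes passed. Leaving out each library gave 2 of 7 each time. In saline, 1 of 7 passed with the striatal score and 1 without the 4 libraries of high thalamic score. Under amphetamine, DESeq2 called 2, the replicate block, the fit of only the 2 groups and the striatal score 1 each, and leaving out a library 0 to 1. Over all genes, same-numbered libraries of different groups had a median r of 0.035 (-0.232 to 0.247, 10 of 30 pairs above 0.1). Libraries of other numbers had a median r of -0.008 (-0.338 to 0.3, 19 of 120 pairs above 0.1). The median of same-numbered pairs lay under 0.1, and the main fit has no block. A library was closest to its own number in 0 to 2 of 5 pairs per comparison. The block changed 1 member call, Cyp51 under amphetamine (edgeR adjusted p = 0.0171). The mean of the 7 enzymes, however, lay below the group mean in all 4 libraries numbered 2 and all 4 numbered 3 and above it in all 4 numbered 4, a hint from the data and not from the design. With the block the SE of Cyp51 between 2 groups was 0.0674, against 0.0943 without it. Enzymes at an unadjusted p under 0.05 for the drug were then 2 in the overactive line, 3 in the control line and 4 over both lines, against 0, 1 and 2 without it, and 0 passed after adjustment. Over all 17206 genes tested the counts with the block were 1464, 957 and 1940, against 1382, 957 and 1895 without it. Of 44 list genes 5 passed with the block over both treatments, against 2 without it, where 1225 of all genes passed with the block and 1208 without it.

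With the cortical score, signs reversed for the drug in the overactive line for Hmgcs1 (-0.0829), Idi1 (-0.0662), Fdft1 (-0.0081) and Lss (-0.0260), over both lines for Idi1 (-0.0069) and Cyp51 (-0.0834), and for the difference between lines for Sqle (-0.0427). They also reversed for the line in saline for Hmgcs1 (0.1165), Idi1 (0.0977), Fdft1 (0.0684) and Sqle (0.0432), under amphetamine for Sqle (0.0005), and over both treatments for Hmgcs1 (0.0102), Idi1 (0.0385) and Sqle (0.0219). With the endothelial score they reversed for the drug in the control line for Sqle (-0.0443) and Cyp51 (-0.0720), in the overactive line for Cyp51 (0.0255), over both lines for Cyp51 (-0.0232), and for the difference for Hmgcs1 (0.1820), Idi1 (0.0860), Fdft1 (0.0930), Lss (0.0395) and Cyp51 (0.0975). For the line they reversed under amphetamine for Idi1 (0.0220), Fdft1 (0.0094), Sqle (0.1693) and Dhcr7 (0.0513), and over both treatments for Sqle (0.0169). With the astrocyte score they reversed for Cyp51 in the overactive line (0.0064), for Hmgcs1 (0.0229) and Idi1 (0.0197) in the difference, and for Sqle under amphetamine (0.0280). With the striatal score the difference reversed for Sqle (-0.0739). Without the 4 libraries, Cyp51 in the overactive line (0.2443) and Dhcr7 over both lines (0.0213) reversed, as did Hmgcs1 (0.2084), Idi1 (0.2406), Fdft1 (0.0439) and Cyp51 (0.1558) in the difference and Idi1 (0.0173) and Sqle (0.0165) under amphetamine. None of these reversed values passed the test, and the cause was not tested.

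Leaving out 1 library crossed 0 for Dhcr7 after the drug in the control line (-0.0859 to 0.0148), the overactive line (-0.0193 to 0.0810) and both lines (-0.0293 to 0.0211), and for Cyp51 in the overactive line (-0.1107 to 0.0341) and both lines (-0.0124 to 0.0617). It did so in the difference for Hmgcs1 (-0.1256 to 0.0106), Idi1 (-0.0925 to 0.0428) and Sqle (-0.0302 to 0.1208), and for the line in saline for Idi1 (-0.1020 to 0.0333) and Fdft1 (-0.0689 to 0.0270) and under amphetamine for Sqle (-0.0660 to 0.0018). Of 10 genes most alike, 4 were shared when group means were left in.

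Counts over all genes moved by more than 1.5 times as follows. DESeq2 gave 776 in saline, 325 with amphetamine and 2116 over both treatments, where edgeR gave 191, 78 and 1208, and limma-voom gave 297 in saline. For the drug, DESeq2 gave 2, 42 and 166 genes in the control line, the overactive line and both, where edgeR gave 0, and without the 4 libraries there were 31 in the overactive line and 80 over both. In saline there were 19 with the cortical score, 111 with the endothelial score and 95 without the 4 libraries. Under amphetamine there were 51 with the block, 50 with only the 2 groups, 38 with the oligodendrocyte, 24 with the striatal, 127 with the astrocyte and 26 with the endothelial score, and 17 without the 4 libraries. Over both treatments there were 554 with the oligodendrocyte, 185 with the cortical, 775 with the striatal and 1875 with the astrocyte score, and 323 without the 4 libraries. Leaving out each library gave 67 to 240 in saline, 23 to 88 under amphetamine, 770 to 1414 over both treatments and 0 to 4 for the drug over both lines.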
